A study of Mus musculus with 11 samples.

Results

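Cytochrome P450 genes of families 1 to 3 encode the membrane-bound enzymes that oxidize drugs, other foreign chemicals, steroids, retinoids and fatty acids in the liver. They were taken from the count table as every gene whose symbol is Cyp, a family number from 1 to 3, a subfamily letter and a member number. *Cyp2c70* and pseudogenes were left out, and the rule also passes over *Cyp2ab1*, *Cyp3a41a* and *Cyp3a41b*, whose symbols have another form. This gave 57 of the 46603 genes in the table, with 3 in family 1, 47 in family 2 and 7 in family 3. Of these, 6 had no count in any mouse (*Cyp2b19*, *Cyp2b23*, *Cyp2c66*, *Cyp2j7*, *Cyp2j12* and *Cyp2w1*), and 14 had between 1 and 68 counts over all mice and were too low to test. The remaining 37 had about 10 counts or more in at least 4 mice and were tested.

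Liver RNA of male *ob/ob* mice with diet-induced MASH was sequenced after treatment with INT-767 (n = 4) or with vehicle (n = 7). All mice of both groups lack leptin through the *ob* allele, were 5 to 6 weeks old when the AMLN diet, a high-fat feed with fructose and cholesterol, began, and were selected by liver biopsy before dosing. The drug, a semi-synthetic bile acid, is an agonist of the nuclear receptor FXR and the membrane receptor TGR5 and was dosed orally at 10 mg/kg a day for 8 weeks. Vehicle was carboxymethyl cellulose, and both groups stayed on the diet. The RNA came from pieces of the left lateral lobe with all their cell types, so that fewer cells of a type and less RNA per cell cannot be told apart. The labels tell the mice of a group apart by a replicate number and a library name, with no batch, and *p*-values measure the spread between these mice.

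P450 enzymes take electrons from P450 oxidoreductase and carry a heme group, and each subfamily has its own set of substrates. In the liver, many are switched on by foreign compounds through the receptors CAR, PXR and AHR, and several differ between male and female mice under the control of growth hormone. Their place in the liver lobule also differs, since most are made near the central vein and a few, such as *Cyp2f2*, near the portal vein.

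Total counts per mouse were 7966963 to 15295230 with vehicle (median 10878327) and 7381211 to 16022459 with INT-767 (median 12034846.5). Levels are given as CPM, counts relative to library size after scaling by edgeR's TMM factors, and 3 counts of a mouse's total correspond to between 0.175 and 0.422 CPM. Fold changes are log2 of INT-767 over vehicle with their standard error (SE), and adjusted *p* are Benjamini-Hochberg values of edgeR's quasi-likelihood test over all 13880 genes tested. Single mice stood apart within their group. The first axis of the variance within groups held 58.8% of it, with vehicle mouse 1 (score 0.52), vehicle mouse 7 (0.34), INT-767 mouse 4 (0.44) and INT-767 mouse 2 (0.18) at the positive end and vehicle mouse 2 near 0 (0.01). The other vehicle mice scored between -0.28 and -0.17, INT-767 mouse 3 at -0.25 and INT-767 mouse 1 at -0.37, so that the treated mice lay at both ends. Across genes, the loading on this axis correlated with GC content (Spearman's rho -0.32) and transcript length (rho -0.33), as a description over genes that share the same libraries. Gene coordinates are on GRCm38. The count of called P450 genes and the calls of single genes were also taken without the 4 mice at the positive end.

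Most P450 genes that passed the test were higher with INT-767. Of the 37 tested, 11 were higher and 1 lower with INT-767 at an edgeR adjusted *p* under 0.05, and 25 were not called. Among all tested genes 5.04% were higher and 4.68% lower, while 29.7% of the tested P450 genes were higher. The log2 fold change was positive in 29 and negative in 8, with a median of 0.59 (from -1.66 to 2.11), against a median of -0.01 over all tested genes. The groups did not overlap in 10 of the 37, against 7.51% of all tested genes. In 8 of them all treated mice were above all vehicle mice (3.87% of all genes), and in 2 they were below (3.65%). An unadjusted *p* under 0.05 was reached by 21 of the 37, against 32.9% of all genes. The exact Mann-Whitney p (two-sided) of the 10 genes without overlap was 0.00606, the smallest that 4 against 7 mice allow, and with adjustment over all genes it could not go below 0.0807. Without vehicle mice 1 and 7 the test called 19 higher and 3 lower, with 35.6% of all genes called, and without INT-767 mice 2 and 4 as well it called 15 and 1, with 12.1% of all genes called. The lower gene was then *Cyp2d9*, and *Cyp2j9*, the lower gene in the test of all mice, was not called. Leaving out INT-767 mouse 2 alone left 4 higher (*Cyp2c38*, *Cyp2c39*, *Cyp2f2* and *Cyp3a59*) and 0 lower, in a fit that called 1.91% of all genes in place of 9.72%. Leaving out vehicle mouse 1 alone gave 16 higher and 2 lower, with 23.6% of all genes called.

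**Figure D1:**
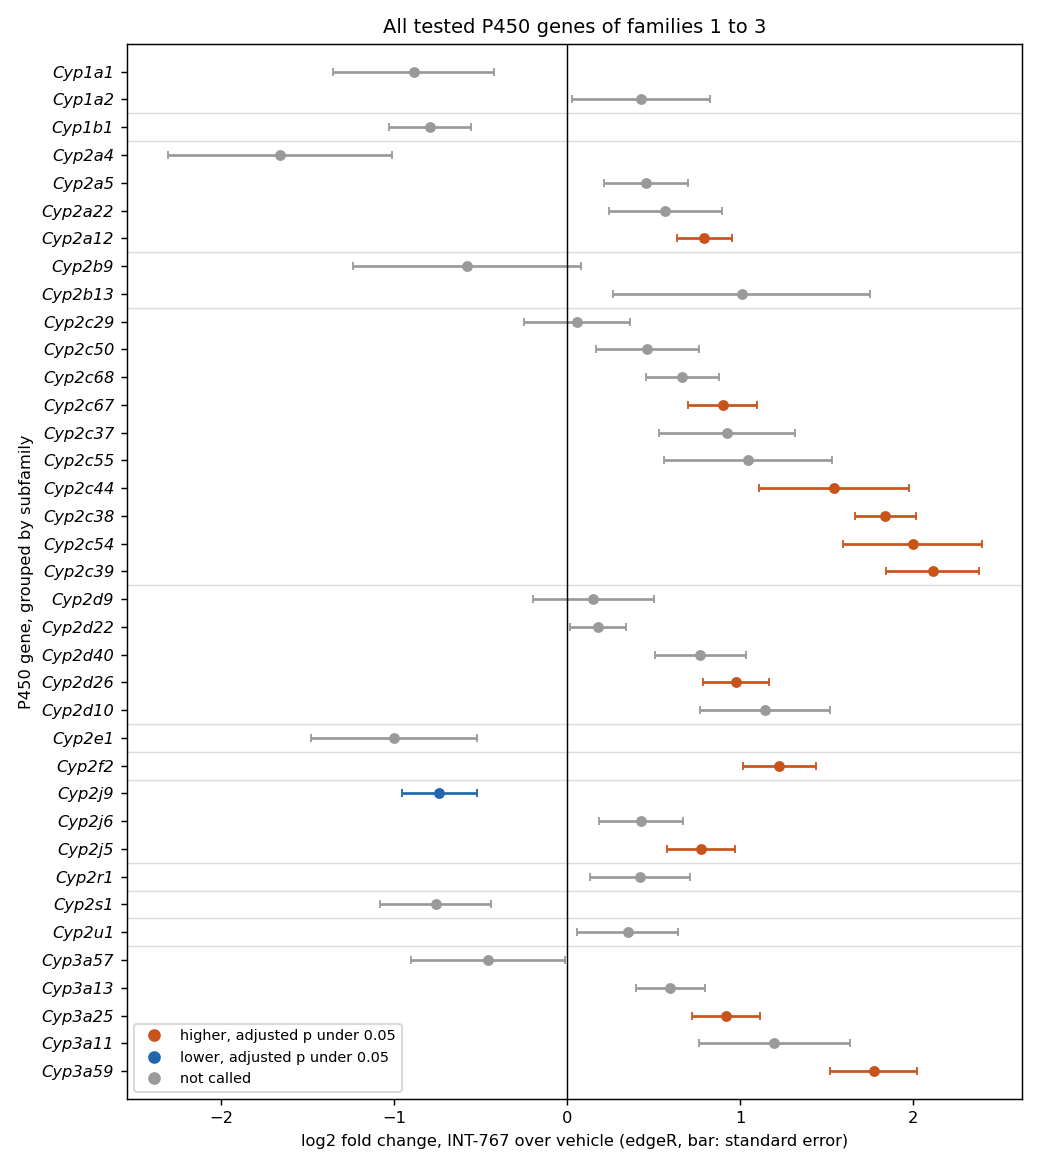
Log2 fold change of INT-767 over vehicle (x axis) with its standard error for the 37 tested P450 genes of families 1 to 3 (y axis), grouped by subfamily and ordered within it. Orange points mark the 11 higher genes, the blue point the 1 lower gene (*Cyp2j9*) and grey points the 25 not called, and all 10 Cyp2c and all 5 Cyp2d genes lie right of 0, although *Cyp2c29*, *Cyp2d9* and *Cyp2d22* turned negative with library-size scaling.

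The Cyp2c subfamily, whose enzymes oxidize drugs and turn arachidonic acid into epoxides, held 5 of the 11 higher genes, where 5.04% of all tested genes were higher. All 10 of its tested members had a positive log2 fold change, with a median of 0.98, except that *Cyp2c29* was negative with library-size or upper-quartile scaling, and of its 14 members 3 had too few counts to test and 1 (*Cyp2c66*) had none. The most abundant per kilobase of transcript in these livers was *Cyp2c29*, at 128 CPM per kilobase with vehicle and 133 with INT-767. *Cyp2c68* stood at 57.4 and 91.1 CPM per kilobase, and *Cyp2c38* at 25.7 and 91.9. *Cyp2c38* and *Cyp2c39*, which follow *Cyp2c29* on chromosome 19, passed the test and *Cyp2c29* did not. The 250 bases before the RefSeq transcription start (build GRCm38.p6, 5′ to 3′) are shown for *Cyp2c29* and its neighbour *Cyp2c38*, with capitals for the hexamer AGGTCA, the core bound by nuclear receptors such as CAR, PXR and FXR, read on either strand.
Cyp2c29 (chr19:39286835-39287084, plus strand): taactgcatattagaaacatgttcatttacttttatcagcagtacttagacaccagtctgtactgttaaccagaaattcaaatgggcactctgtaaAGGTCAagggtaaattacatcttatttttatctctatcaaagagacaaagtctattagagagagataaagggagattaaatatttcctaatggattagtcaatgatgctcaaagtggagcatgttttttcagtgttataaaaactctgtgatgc
Cyp2c38 (chr19:39463076-39463325, minus strand): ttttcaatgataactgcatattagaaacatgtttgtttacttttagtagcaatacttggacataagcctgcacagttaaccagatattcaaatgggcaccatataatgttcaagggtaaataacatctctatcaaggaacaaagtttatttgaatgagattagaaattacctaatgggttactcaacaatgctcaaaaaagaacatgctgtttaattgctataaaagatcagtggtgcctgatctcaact
These windows were identical at 68.8% of the 272 alignment columns, of which 41 were substitutions and 44 were gaps. The hexamer occurs in that of *Cyp2c29*, beginning 154 bases before the RefSeq start, and its letters do not occur in that of *Cyp2c38*. The annotated gene *Cyp2c29* begins at base 39269405, so that its RefSeq start and the window shown lie inside the annotated gene.

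*Cyp2c38* (chr19:39389556-39463075, minus strand, 9 exons) stood between 53.5 and 95.2 CPM in the vehicle mice (median 74.6) and at 269, 340, 221 and 225 CPM in INT-767 mice 1 to 4. No treated mouse came near the vehicle range, and the spread within each group was small. The log2 fold change was 1.84 (SE 0.18, edgeR adjusted *p* = 0.000276), and the gene passed the test whichever mouse was left out. *Cyp2c29* (chr19:39269405-39330713, plus strand, 9 exons), a gene that CAR induces, ranged from 141 to 355 CPM with vehicle (median 222) and stood at 390, 235, 210 and 111 CPM with INT-767. The treated mice spanned the whole vehicle range, and the log2 fold change was 0.06 (SE 0.31, edgeR adjusted *p* = 0.906), with a sign that turned under library-size scaling (-0.11). Only 2.46% of the 75-base windows of *Cyp2c29* and 1.86% of those of *Cyp2c38* occur in another gene. Per 100 reads of *Cyp2c29* there were 26.8 to 40.5 reads of *Cyp2c38* in the vehicle mice and 68.9 to 202 in the treated mice, so that this ratio, which no scaling of the library affects, separated the groups. The pair was chosen after its values were seen, and the ratio was not tested.

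*Cyp2c39* (chr19:39510862-39568529, plus strand), which hydroxylates retinoic acid, lies beside *Cyp2c38* and stood between 3.37 and 5.72 CPM with vehicle (median 3.97) and at 18.0, 30.5, 13.5 and 9.52 CPM with INT-767. With all mice it had the largest log2 fold change of the tested P450 genes, 2.11 (SE 0.27, edgeR adjusted *p* = 0.00224), at a level far under that of *Cyp2c38* per kilobase (2.25 against 25.7 CPM per kilobase with vehicle). Every treated mouse was above every vehicle mouse, and the call held whichever mouse was left out. *Cyp2c54* (chr19:40037940-40073827, minus strand) stood between 2.6 and 7.77 CPM with vehicle (median 4.18) and at 11, 40.4, 12.8 and 8.39 CPM with INT-767. The groups did not overlap, but mouse 4 was just above the highest vehicle mouse and mouse 2 far above the rest. Its log2 fold change was 2.00 (SE 0.40, edgeR adjusted *p* = 0.0124), and without INT-767 mouse 2 it was 1.24 (edgeR adjusted *p* = 0.0518). Of its 75-base windows 14.1% also occur in other genes, mainly *Cyp2c50*.

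*Cyp2c67* (chr19:39608842-39649051, minus strand) ranged from 58.5 to 84.7 CPM with vehicle (median 74.5) and was 180, 168, 126 and 78.8 CPM with INT-767. Mice 1 to 3 of the treated group were above all vehicle mice and mouse 4 lay among them. A log2 fold change of 0.90 was found (SE 0.20, edgeR adjusted *p* = 0.0188), and the adjusted *p* was 0.0943 without INT-767 mouse 2. With an offset for GC content and length it was 0.49 and not called (edgeR adjusted *p* = 0.272). Of its windows 36.0% are shared with other genes, mainly *Cyp2c40*, *Cyp2c69* and *Cyp2c68*. *Cyp2c40* and *Cyp2c69* had only 61 and 15 counts over all mice, against 12022 of *Cyp2c67*, and 9.41% of the windows occur in *Cyp2c68*. *Cyp2c44* (chr19:44005022-44029208, minus strand), an epoxygenase of arachidonic acid that shares no window with another gene, stood between 30.6 and 40.2 CPM with vehicle (median 37.3) and at 241, 72.8, 75.3 and 20.2 CPM with INT-767. Here 3 treated mice were above every vehicle mouse and mouse 4 was below every vehicle mouse. Its log2 fold change of 1.54 (SE 0.43, edgeR adjusted *p* = 0.0436) passed in only 3 of the 11 fits that left out a mouse, those without vehicle mouse 1, INT-767 mouse 3 or INT-767 mouse 4. Without INT-767 mouse 1 it was 0.67 (edgeR adjusted *p* = 0.122). The call was also lost with library-size or upper-quartile scaling, no filter, or at least 10 counts in every mouse (edgeR adjusted *p* from 0.0529 to 0.0824). With limma-voom it was 1.03 and not called (adjusted *p* = 0.147). RLE factors, DESeq2 and the offset for GC content and length kept the call.

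**Figure D2:**
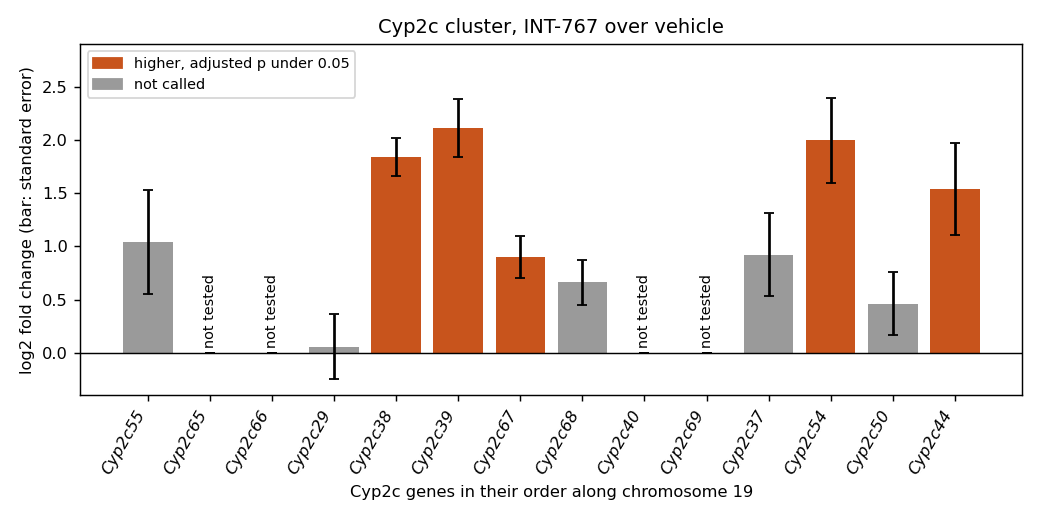
Log2 fold change with its standard error (y axis) of the Cyp2c genes in their order along chromosome 19 (x axis, not to scale). Orange bars are the 5 higher genes, grey bars those not called, and the 4 genes marked as not tested had too few counts or none. *Cyp2c38* (1.84) and *Cyp2c39* (2.11) stand beside *Cyp2c29* (0.06).

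In the Cyp3a subfamily, the main drug-oxidizing enzymes of the liver and classical targets of PXR, 2 of the 5 tested genes were higher and the median log2 fold change was 0.92. Over all tested genes 5.04% were higher. *Cyp3a25* and *Cyp3a59* lie beside each other on chromosome 5, on opposite strands. Their windows before the RefSeq start (build GRCm38.p6) are shown because both genes rose, with the hexamer AGGTCA on either strand in capitals.
Cyp3a25 (chr5:146009619-146009868, minus strand): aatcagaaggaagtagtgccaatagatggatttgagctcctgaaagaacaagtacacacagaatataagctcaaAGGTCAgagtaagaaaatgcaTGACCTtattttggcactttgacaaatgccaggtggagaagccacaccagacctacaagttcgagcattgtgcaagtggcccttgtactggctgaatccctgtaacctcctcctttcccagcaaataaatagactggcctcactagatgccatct
Cyp3a59 (chr5:146079008-146079257, plus strand): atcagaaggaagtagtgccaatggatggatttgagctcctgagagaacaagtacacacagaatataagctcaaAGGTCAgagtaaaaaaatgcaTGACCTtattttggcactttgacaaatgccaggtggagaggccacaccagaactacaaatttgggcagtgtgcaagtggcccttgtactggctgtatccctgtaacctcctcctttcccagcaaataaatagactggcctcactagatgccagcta
They were identical at 94.8% of alignment columns, gaps included, and each held the hexamer at 2 places, beginning 176 and 155 bases before the start in *Cyp3a25* and 177 and 156 bases before it in *Cyp3a59*. Of all 27025 genes with a RefSeq window, 15.8% held the hexamer, as did 14 of the 49 P450 genes of families 1 to 3 with such a window (28.6%), a gene counting where any of its listed starts had it. A match of letters is not a binding site.

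*Cyp3a59* (chr5:146079257-146113287, plus strand, 13 exons) stood between 40.2 and 77.0 CPM with vehicle (median 54.0) and at 224, 290, 121 and 115 CPM with INT-767. All treated mice were above all vehicle mice, with mice 1 and 2 the highest. *Cyp3a59* rose by 1.77 on the log2 scale (SE 0.25, edgeR adjusted *p* = 0.00329), and the call held whichever mouse was left out. *Cyp3a25* (chr5:145977194-146009618, minus strand, 13 exons) ranged from 462 to 813 CPM with vehicle (median 659) and was 966, 1557, 911 and 1311 CPM with INT-767. The groups did not overlap, with a log2 fold change of 0.92 (SE 0.20, edgeR adjusted *p* = 0.0163). Its adjusted *p* was 0.0839 without INT-767 mouse 2, and 0.0597 without the 4 mice at the positive end of the within-group axis. With the offset for GC content and length its log2 fold change was 0.37 and not called (edgeR adjusted *p* = 0.176). The genes share 13.2% of the windows of *Cyp3a59*. Reads of *Cyp3a59* per 100 reads of *Cyp3a25* were 7.81 to 9.47 with vehicle, and 23.2, 18.6, 13.2 and 8.74 with INT-767, so that 3 treated mice were above the vehicle range and mouse 4 was within it.

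*Cyp3a11* (chr5:145854426-145879964, minus strand, 13 exons), the main Cyp3a enzyme of mouse liver, had the highest mean level of the family per kilobase with INT-767, at 4981 CPM per kilobase. With vehicle its mean was 2173 and its median 1585 CPM per kilobase, and it was above *Cyp2e1* in vehicle mice 1 and 7 and below it in the other 5. Its level was 2693 to 10199 CPM with vehicle (median 3714) and 6043, 16838, 6067 and 17756 CPM with INT-767. Vehicle mice 1 (10199) and 7 (8227) lay above INT-767 mice 1 and 3, while the other 5 vehicle mice were below every treated mouse. Its log2 fold change of 1.20 (SE 0.43) did not pass the test (edgeR adjusted *p* = 0.088). It passed in 1 of the 11 fits that left out a mouse, without vehicle mouse 1 (1.46, edgeR adjusted *p* = 0.0277), and was 0.94 without INT-767 mouse 2 (edgeR adjusted *p* = 0.276) and 0.91 without INT-767 mouse 4 (edgeR adjusted *p* = 0.242). Without vehicle mice 1 and 7 it was 1.76 (edgeR adjusted *p* = 0.00897), and without INT-767 mice 2 and 4 as well it was 0.82 (edgeR adjusted *p* = 0.0314). DESeq2 called it (1.21, adjusted *p* = 0.0385), and with the offset for GC content and length it was 0.79 (edgeR adjusted *p* = 0.0706). *Cyp3a13* (0.59, edgeR adjusted *p* = 0.0734) and *Cyp3a57* (-0.46, edgeR adjusted *p* = 0.469) were not called, although *Cyp3a13* passed without vehicle mouse 1 (0.026), without vehicle mice 1 and 7 (0.026) and with DESeq2 (0.0321).

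*Cyp2e1* (chr7:140763739-140774987, plus strand, 9 exons), which oxidizes ethanol and acetaminophen near the central vein, had a mean of 2156 and a median of 2329 CPM per kilobase with vehicle and a mean of 1077 with INT-767, where it was below *Cyp3a11* in all 4 mice. Its level was 1356 to 6337 CPM with vehicle (median 4269.6) and 1322, 1825, 3967 and 782 CPM with INT-767. Vehicle mice 1 (1356) and 7 (1854), the highest in *Cyp3a11* among vehicle mice, were the lowest in *Cyp2e1*, and among treated mice number 4 was highest in *Cyp3a11* and lowest in *Cyp2e1*. Its log2 fold change of -1.002 (SE 0.48) did not pass the test (edgeR adjusted *p* = 0.162). Without vehicle mice 1 and 7 it was -1.31 (edgeR adjusted *p* = 0.0273), and without INT-767 mice 2 and 4 as well -0.88 (edgeR adjusted *p* = 0.118). Without INT-767 mouse 3 alone it was -1.58 (edgeR adjusted *p* = 0.0545). The part of the within-group axis in the levels of *Cyp3a11* and *Cyp2e1* was not tested.

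**Figure D3:**
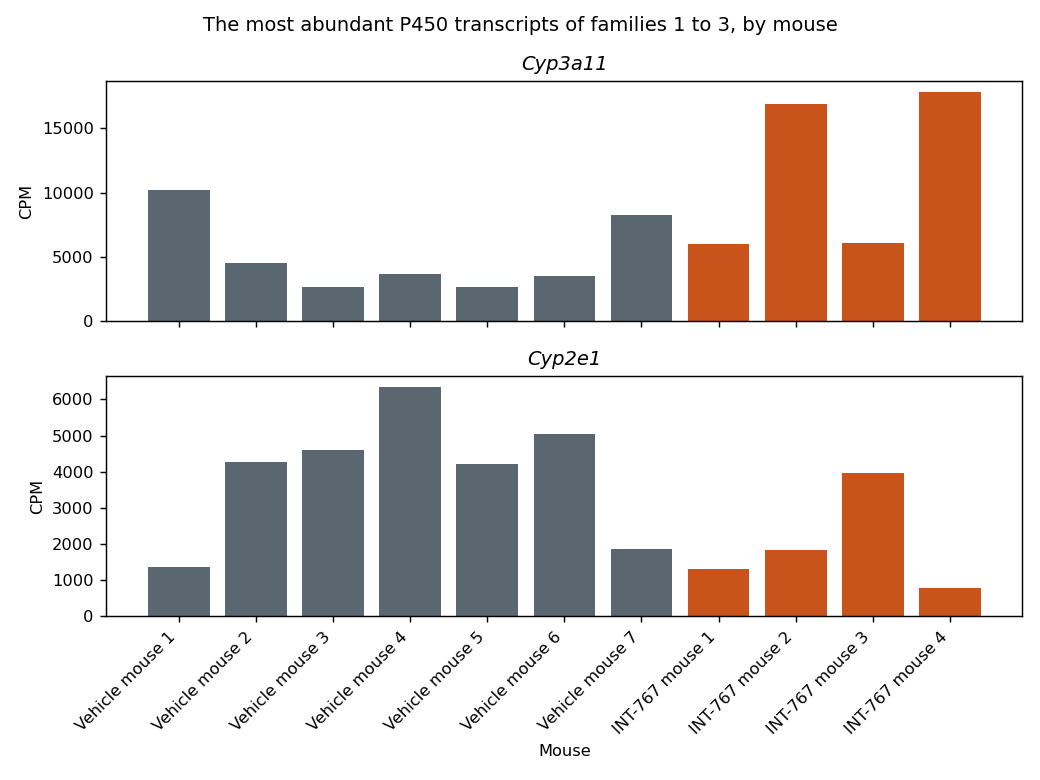
Level in CPM (y axis, from 0) of *Cyp3a11* (top) and *Cyp2e1* (bottom) in each mouse (x axis), vehicle in grey and INT-767 in orange. Vehicle mice 1 and 7 are high in *Cyp3a11* (10199 and 8227 CPM) and low in *Cyp2e1* (1356 and 1854 CPM), as is INT-767 mouse 4 (17756 and 782 CPM).

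Among the Cyp2a genes 1 of 4 was higher, against 5.04% of all tested genes. *Cyp2a12* (chr7:27029081-27037375, plus strand, 9 exons), which puts back the 7-hydroxyl group of secondary bile acids in mice, stood between 320.0 and 422 CPM with vehicle (median 373) and at 782, 728, 534 and 500.1 CPM with INT-767. The groups did not overlap, and mice 1 and 2 were the highest. Its log2 fold change was 0.79 (SE 0.16, edgeR adjusted *p* = 0.0124), with an adjusted *p* of 0.0664 without INT-767 mouse 2.

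*Cyp2a4*, a testosterone hydroxylase more abundant in females, and *Cyp2a5*, which oxidizes coumarin, are near-identical genes, and were singled out after their values were seen. Their windows before the RefSeq start (build GRCm38.p6) are shown with the 4 substituted positions in capitals, and were identical at 97.6% of alignment columns, gaps included.
Cyp2a4 (chr7:26306942-26307191, plus strand): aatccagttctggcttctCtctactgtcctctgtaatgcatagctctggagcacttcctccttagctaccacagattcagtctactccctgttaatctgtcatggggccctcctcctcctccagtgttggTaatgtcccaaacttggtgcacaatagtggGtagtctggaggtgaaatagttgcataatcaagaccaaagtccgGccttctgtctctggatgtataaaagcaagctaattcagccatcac
Cyp2a5 (chr7:26835089-26835338, plus strand): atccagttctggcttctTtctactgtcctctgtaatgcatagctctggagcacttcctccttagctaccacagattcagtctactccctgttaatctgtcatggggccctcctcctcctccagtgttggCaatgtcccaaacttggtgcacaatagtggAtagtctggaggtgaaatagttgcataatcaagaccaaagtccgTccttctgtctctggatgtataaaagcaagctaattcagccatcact
The log2 fold changes of the pair had opposite signs, and neither passed the test. *Cyp2a4* stood between 19 and 93.8 CPM with vehicle (median 36.7) and at 22.6, 0.276, 14.6 and 18.1 CPM with INT-767. All treated mice but mouse 1 were below every vehicle mouse, and mouse 2 had almost none. The log2 fold change was -1.66 (SE 0.65, edgeR adjusted *p* = 0.105) and was not called, while DESeq2 called it lower (-1.67, adjusted *p* = 0.0443). Without the 4 mice at the positive end of the axis it was -0.85 (edgeR adjusted *p* = 0.0745). *Cyp2a5* was 310.03 to 666 CPM with vehicle (median 423) and 699, 689, 726 and 399.8 CPM with INT-767, with a log2 fold change of 0.46 (SE 0.24, edgeR adjusted *p* = 0.199) that passed without the 4 mice at the positive end of the axis (0.76, edgeR adjusted *p* = 0.0498). Per 100 reads of *Cyp2a5* there were 5.74 to 14.1 reads of *Cyp2a4* with vehicle and 3.23, 0.0401, 2.02 and 4.54 with INT-767, which separated the groups, with no test. The value of mouse 2 rests on 2 reads of *Cyp2a4*, under the floor of 3. Of the windows of *Cyp2a4* and *Cyp2a5*, 22.1% and 22.3% occur in another gene, and no source used here says how such reads were assigned.

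**Figure D4:**
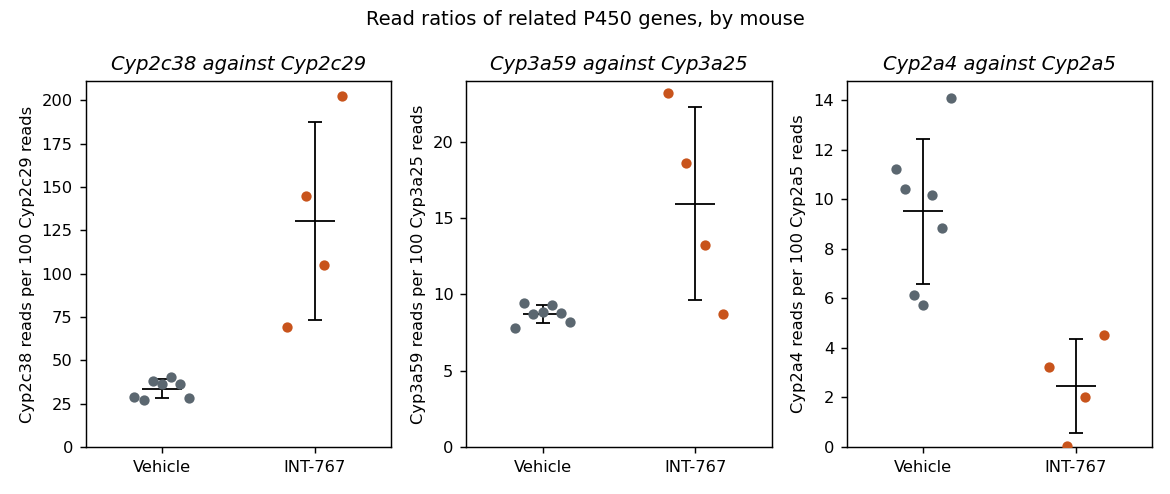
Reads of 1 gene per 100 reads of a related gene (y axes, from 0) in each mouse, with mean and standard deviation, for 3 pairs chosen after their values were seen. The treated mice are above all vehicle mice for *Cyp2c38* against *Cyp2c29* (68.9 to 202, vehicle 26.8 to 40.5), below them for *Cyp2a4* against *Cyp2a5* (0.0401 to 4.54, vehicle 5.74 to 14.1), and overlap them for *Cyp3a59* against *Cyp3a25*.

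All 5 tested Cyp2d genes had a positive log2 fold change (median 0.77), although *Cyp2d9* (-0.10) and *Cyp2d22* (-0.043) were negative with library-size scaling. Of these 5 genes 1 passed the test as higher, against 5.04% of all tested genes. *Cyp2d9*, at 0.15 with all mice (edgeR adjusted *p* = 0.775), was -0.46 without INT-767 mouse 2 (edgeR adjusted *p* = 0.348). Without the 4 mice at the positive end of the axis it was -0.84 and called lower (edgeR adjusted *p* = 0.0186). *Cyp2d26* (chr15:82790101-82794294, minus strand, 9 exons) was the third most abundant gene of the family per kilobase, at 446 CPM per kilobase with vehicle and 877 with INT-767. It stood between 625 and 906 CPM with vehicle (median 772) and at 1008, 2050.1, 1259 and 1646 CPM with INT-767. Every treated mouse was above every vehicle mouse, and mouse 2 was highest. *Cyp2d26* rose by 0.98 on the log2 scale (SE 0.19, edgeR adjusted *p* = 0.0107), with an adjusted *p* of 0.0537 without INT-767 mouse 2. Without the 4 mice at the positive end of the axis it was 0.60 (edgeR adjusted *p* = 0.0497). *Cyp2d10*, with a larger log2 fold change of 1.14 (SE 0.38), spread from 306 to 1493 CPM among the treated mice and was not called (edgeR adjusted *p* = 0.0699), but passed without vehicle mouse 1, INT-767 mouse 1 or INT-767 mouse 3 (adjusted *p* from 0.0305 to 0.0471), without vehicle mice 1 and 7 (0.0207) and with DESeq2 (0.0261). It was 0.60 without INT-767 mouse 4 (edgeR adjusted *p* = 0.277) and 0.30 without the 4 mice at the positive end of the axis (edgeR adjusted *p* = 0.305). The summed level of the 8 Cyp2d genes was 1188 to 1576 CPM with vehicle and 1593 to 3525 CPM with INT-767.

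*Cyp2f2* (chr7:27119909-27133660, plus strand, 10 exons), which oxidizes naphthalene and is made in periportal liver cells, is the only member of its subfamily. Its level was 65.6 to 143 CPM with vehicle (median 95.1) and 308, 191, 197 and 212 CPM with INT-767. The groups did not overlap, with mouse 1 the highest. A log2 fold change of 1.23 (SE 0.21, edgeR adjusted *p* = 0.00592) passed the test whichever mouse was left out. Of its exon bases 13.5% lie under a gene on the opposite strand, whose reads may be included, since no source used here gives the strand setting of the count.

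Within the Cyp2j genes, which turn arachidonic acid into epoxides, neighbours on chromosome 4 went opposite ways. *Cyp2j5* (chr4:96628773-96664154, minus strand, 9 exons), the most abundant of them, stood between 234 and 471 CPM with vehicle (median 281) and at 507, 657, 454 and 524 CPM with INT-767. Vehicle mouse 1 lay above INT-767 mouse 3, and the other vehicle mice were below all treated mice. *Cyp2j5* rose by 0.77 on the log2 scale (SE 0.19, edgeR adjusted *p* = 0.0299), a call kept in 6 of the 11 fits that left out a mouse. It was lost without vehicle mouse 3, 4, 5 or 6 (adjusted *p* from 0.0569 to 0.0621) and without INT-767 mouse 2 (0.127), and with the offset for GC content and length its log2 fold change was 0.49 (edgeR adjusted *p* = 0.0302). *Cyp2j9* (chr4:96568429-96591578, minus strand, 9 exons), the only lower gene, stood between 12.6 and 22.5 CPM with vehicle (median 15.5) and at 6.67, 9.40, 12.4 and 11 CPM with INT-767. The groups did not overlap, although mouse 3 was just under the lowest vehicle mouse. Its log2 fold change was -0.74 (SE 0.22, edgeR adjusted *p* = 0.0496), and the call was kept in only 2 of the 11 fits that left out a mouse, those without vehicle mouse 1 or INT-767 mouse 3. The highest adjusted *p* was 0.154, without INT-767 mouse 2, and it was 0.073 without the 4 mice at the positive end of the axis. The call of *Cyp2j9* was also lost with RLE factors and with no filter. Neither gene shares a 75-base window with another gene.

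**Figure D5:**
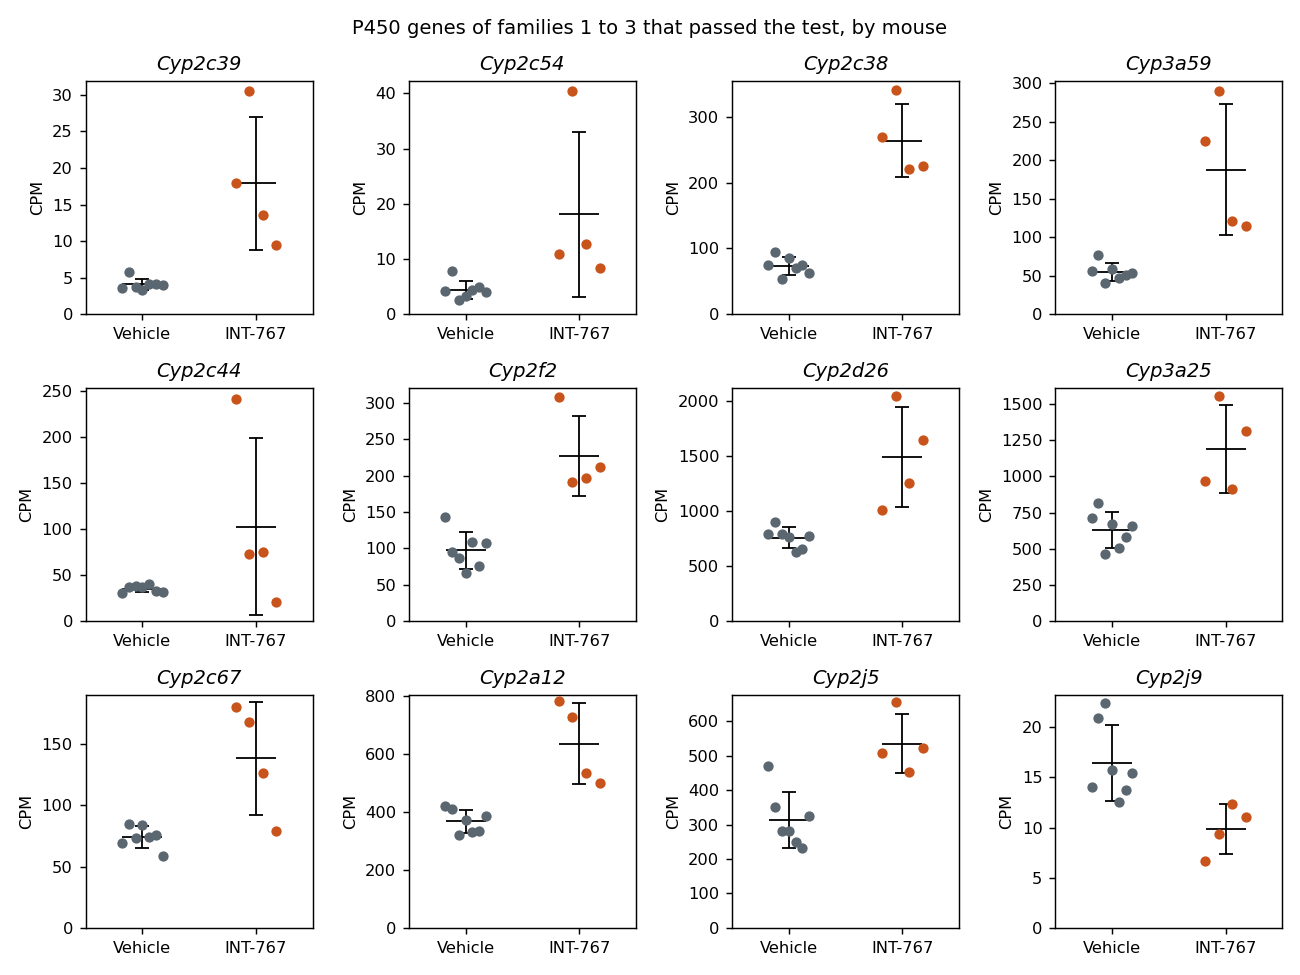
Level in CPM (y axes, from 0) of the 12 P450 genes that passed the test, 1 point per mouse, with mean and standard deviation, vehicle (n = 7) in grey and INT-767 (n = 4) in orange. In 9 panels the groups do not overlap (8 higher, and *Cyp2j9* lower), and in those of *Cyp2c67*, *Cyp2c44* and *Cyp2j5* they do.

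The tested genes of Cyp1a, Cyp1b, Cyp2b, Cyp2r, Cyp2s and Cyp2u gave no call. *Cyp1a2*, the AHR target that oxidizes caffeine, ranged from 27.0 to 86.6 CPM with vehicle (median 49.8) and was 101, 60.4, 126 and 22.4 CPM with INT-767. Its treated mice ranged from below to above the vehicle mice, and the log2 fold change was 0.43 (SE 0.40, edgeR adjusted *p* = 0.454). Leaving out 1 treated mouse moved it to between 0.098 (mouse 3) and 0.73 (mouse 4), and it passed without the 4 mice at the positive end of the axis (0.78, edgeR adjusted *p* = 0.0426). *Cyp1b1*, an estrogen hydroxylase made mainly outside hepatocytes, was 8.86 to 19.3 CPM with vehicle (median 10.4) and 5.91, 6.36, 7.46 and 7.57 CPM with INT-767. All treated mice were below all vehicle mice, and its log2 fold change of -0.79 (SE 0.24) missed the threshold (edgeR adjusted *p* = 0.0539) and passed it without vehicle mouse 1 (-0.64, edgeR adjusted *p* = 0.0363), without vehicle mice 1 and 7 (-0.51, edgeR adjusted *p* = 0.0348), with library-size (0.0265) or upper-quartile scaling (0.0446), with at least 10 counts in every mouse (0.0401) and with DESeq2 (0.0163). *Cyp1b1* was further from the threshold with the offset for GC content and length (-0.62, edgeR adjusted *p* = 0.143) and without INT-767 mouse 2 (-0.78, edgeR adjusted *p* = 0.158). *Cyp2b9*, more abundant in females, was 8.37 to 114 CPM with vehicle (median 54.2) and 51.4, 5.53, 58.0 and 29.4 CPM with INT-767. It varied widely within either group, with a log2 fold change of -0.58 (SE 0.66, edgeR adjusted *p* = 0.539) that lay between -0.97 and -0.23 under the alternatives, and *Cyp2b10*, the classical CAR target, had 52 counts over all mice and was not tested.

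*Cyp2r1*, a 25-hydroxylase of vitamin D, stood between 7.56 and 22.3 CPM with vehicle (median 12.5) and at 14.2, 17.0, 15.9 and 25 CPM with INT-767. Its groups overlapped, with a log2 fold change of 0.42 (SE 0.29, edgeR adjusted *p* = 0.312) that was -0.19 after the offset for GC content and length (edgeR adjusted *p* = 0.421) and passed without vehicle mice 1 and 7 (0.78, edgeR adjusted *p* = 0.0228). *Cyp2s1* was 0.873 to 2.60 CPM with vehicle (median 1.45) and 0.826, 0.83, 0.986 and 0.974 CPM with INT-767, with a log2 fold change of -0.76 (SE 0.32, edgeR adjusted *p* = 0.124). Mice 1 and 2 of the treated group were below every vehicle mouse, and mice 3 and 4 were just above the lowest one. *Cyp2u1*, a fatty acid hydroxylase, was 3.04 to 7.14 CPM with vehicle (median 4.87) and 10.4, 5.39, 4.65 and 4.35 CPM with INT-767. Of its exon bases 10.5% lie under a gene on the opposite strand. Mouse 1 alone was above the vehicle range, and the log2 fold change of 0.35 (SE 0.29, edgeR adjusted *p* = 0.403) was -0.038 without it and 0.62 with the offset for GC content and length (edgeR adjusted *p* = 0.0672).

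Summed over the family, P450 genes of families 1 to 3 took 1.19% to 1.67% of all counts in the vehicle mice and 1.43%, 2.39%, 1.60% and 2.27% in INT-767 mice 1 to 4. The ratio of the mean summed CPM of INT-767 to vehicle was 1.58 for the family, 2.23 for Cyp3a, 1.84 for Cyp2d, 1.75 for Cyp2c, 1.59 for Cyp2j, 1.47 for Cyp2a, 1.33 for Cyp1a and 0.707 for Cyp2b. *Cyp3a11* held 86.6% of the Cyp3a sum and *Cyp2e1* alone is the Cyp2e sum (ratio 0.499). Among the subfamilies of more than 1 gene, only the Cyp2d sum separated the groups, and narrowly. INT-767 mouse 1 was at 1593 CPM and vehicle mouse 2 at 1576 CPM, and the separation does not hold for counts relative to library size alone. These sums were not tested.

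Of 16 genes for electron transfer and heme synthesis or breakdown, 0 were higher and 1 was lower (median log2 fold change 0.07), against 5.04% higher and 4.68% lower among all tested genes. The lower gene was *Hmox1*, heme oxygenase, at -1.21 (SE 0.21, edgeR adjusted *p* = 0.00689). The oxidoreductase *Por* was 551 ± 153 CPM with vehicle (SD, n = 7) and 503 ± 172 with INT-767 (SD, n = 4), a log2 fold change of -0.13 (SE 0.27, edgeR adjusted *p* = 0.748). *Alas1*, the first enzyme of heme synthesis, was at -0.21 (SE 0.20, edgeR adjusted *p* = 0.452).

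Of 18 tested receptors and transcription factors that activate or repress P450 genes, 3 were higher and 0 lower (median 0.14), against 5.04% higher and 4.68% lower among all tested genes. *Nr0b2*, which encodes SHP, rose by 1.54 (SE 0.25, edgeR adjusted *p* = 0.00474), the glucocorticoid receptor gene *Nr3c1* by 0.60 (SE 0.16, edgeR adjusted *p* = 0.0329) and *Nr1i2*, which encodes PXR, by 0.51 (SE 0.15, edgeR adjusted *p* = 0.0491). *Nr1i3*, which encodes CAR, had a log2 fold change of 0.46 (SE 0.27, edgeR adjusted *p* = 0.231) and *Ahr* one of -0.31 (SE 0.16, edgeR adjusted *p* = 0.189). Among 25 targets of CAR and PXR outside the P450 genes, 10 were higher and 0 lower (median 0.73), against the same 5.04% and 4.68%. The log2 fold change was positive in 17 of them and negative in 8. The glutathione transferase gene *Gsta4* rose by 2.21 (SE 0.31, edgeR adjusted *p* = 0.00318), the carboxylesterase gene *Ces2a* by 1.38 (SE 0.21, edgeR adjusted *p* = 0.00403), the aldo-keto reductase gene *Akr1b7* by 3.62 (SE 0.59, edgeR adjusted *p* = 0.00473) and *Gstt1* by 0.96 (SE 0.16, edgeR adjusted *p* = 0.00516). The 5 tested AHR targets outside the family gave no call (median 0.09).

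By place in the lobule, 6 of 11 periportal genes were higher, *Cyp2f2* among them, and 0 lower, with a median of 1.08 (0.88 over the 10 genes other than *Cyp2f2*), where 5.04% of all tested genes were higher and 4.68% lower. *Hal*, which breaks down histidine, rose by 1.97 (SE 0.25, edgeR adjusted *p* = 0.00234), the glutaminase gene *Gls2* by 1.28 (SE 0.20, edgeR adjusted *p* = 0.00403) and the urea cycle gene *Ass1* by 1.31 (SE 0.21, edgeR adjusted *p* = 0.0045). None of 14 pericentral genes outside the P450 families was called (median -0.19). The summed level of the periportal genes, of which *Alb* is the most abundant, was 43793 to 59059 CPM with vehicle and 93865, 89718, 70827 and 49493 CPM with INT-767.

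Several of the P450 genes differ between the sexes, and all mice were male. Outside the family, 3 of 9 tested female-biased genes were higher and 0 lower (median 1.11), and 2 of 11 male-biased genes were higher and 2 lower (median -0.14), beside 5.04% higher and 4.68% lower among all tested genes. Within the family, none of the 3 tested genes on the female-biased list used here was called by edgeR (DESeq2 called *Cyp2a4* lower). The log2 fold changes were negative for *Cyp2a4* and *Cyp2b9* and positive for *Cyp2b13* (1.01, SE 0.74, edgeR adjusted *p* = 0.34). *Cyp2d9*, on the male-biased list, was not called with all mice (0.15, edgeR adjusted *p* = 0.775). Other P450 genes were not sorted by sex bias.

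Markers of other cells were measured beside the P450 genes. All 7 tested cholangiocyte markers, 8 of 9 macrophage markers, 7 of 10 stellate cell markers and 6 of 7 endothelial markers had a negative log2 fold change (medians -0.61, -0.63, -0.66 and -0.46), with 0, 2, 2 and 1 of them called lower, against 4.68% of all tested genes. *Col1a1* was at -2.96 (SE 0.74, edgeR adjusted *p* = 0.0297) and the macrophage gene *Csf1r* at -1.14 (SE 0.19, edgeR adjusted *p* = 0.00498). The summed level of 9 hepatocyte markers, *Alb* the most abundant, was 64134 to 84639 CPM with vehicle and 108827, 121796, 98328 and 83733 CPM with INT-767, with none of them called and a median log2 fold change of 0.52. The macrophage sum, mostly *Cd5l*, was 552 to 764 CPM with vehicle and 378, 390.1, 305 and 747 CPM with INT-767, and the stellate sum, led by *Dcn*, was 926 to 1714 CPM and 696, 785, 849 and 1409 CPM. In these sums and in the cholangiocyte sum, INT-767 mouse 4 was the highest of the treated mice. The cholangiocyte sum, led by *Spp1*, was 736 to 1940 CPM with vehicle and 359, 592, 813 and 1366 CPM with INT-767, and the endothelial sum, led by *Stab2*, was 113 to 257 CPM and 172, 107, 133 and 90.003 CPM. Lymphocyte markers summed to at most 9.41 CPM and pancreas markers to at most 21.7 CPM in any mouse, with none of either called and with *Amy2a5* and *Cpa1* at 0 in every mouse. The part of these differences in cell makeup in the levels of the P450 genes was not tested.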

How the data were processed

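Liver mRNA of 11 mice was measured, 7 given vehicle and 4 given INT-767, grouped by the sample labels. The authors deposited 1 table of raw read counts per gene, 46603 genes by 11 mice, without normalization, from stranded libraries sequenced for 75 cycles and aligned with STAR to GRCm38. The version of STAR is 2.5.2a in the supplementary methods with Ensembl release 84, and 2.4.0 in the submitters' processing notes. No source used here names the counting program, its strand setting or a batch.

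Counts were tested in R 4.3.3 with edgeR 4.0.16: TMM factors (0.843 to 1.14), filterByExpr (minimum count 10, minimum total 15), a robust glmQLFit and glmQLFTest for treatment alone, over 13880 genes, with Benjamini-Hochberg adjustment and a threshold of 0.05. Levels per kilobase used the longest coding transcript in GENCODE M21, which also gave coordinates. Shared sequence is the percent of 75-base transcript windows found in another gene. Libraries were checked for copies, and the closest pair had a median chi-square per gene of 1.10 (0.455 expected of a split library). The floor of 3 counts allows for counting error alone, as the reads carry no molecular identifiers.

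Members, gene lists and tests were chosen with earlier results of these data known. Described mouse by mouse were all called genes and the most abundant tested gene per kilobase of each subfamily (21 genes). The pair *Cyp2a4* and *Cyp2a5*, singled out after its values were seen, was described so too and is not among these 21. Of each of 15 related lists, at most 4 called genes were described, besides *Por*, *Nr1i2*, *Nr1i3*, *Ahr* and *Alas1*. Of the 57 genes, 49 matched a RefSeq promoter window (GRCm38.p6). Alternatives were RLE, library-size and upper-quartile scaling, no filter, at least 10 counts in every mouse, limma-voom (limma 3.58.1), DESeq2 1.42.0, leaving out each mouse, a block for the mouse's number, an offset for GC content and length (lowess, span 0.3) and a threshold of 0.01. On data simulated with this design (13880 genes, 200 with a log2 change of 2) the share of changed genes found was 91.5% by edgeR, 89.5% by limma-voom and 93.5% by DESeq2, beside 9, 8 and 35 false calls. Each gene was simulated independently of the others, so that these data lack the axis within groups seen in the mice. The shares and false calls therefore hold for that setting only, and not for smaller changes. Plots were made in Python 3.11.15 with matplotlib 3.10.9.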

Additional observations from a re-analysis of the deposited data

Results flagged for a closer look

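Of 56 groups checked (the 7 vehicle or the 4 INT-767-treated mice, for each of 21 P450 genes and 7 subfamily sums), 2 held a mouse far from the rest of its group, while chance alone gives about 1 in 20. The *Cyp2c39* level of vehicle mouse 2 was 5.72 CPM, above the other vehicle mice and still below every treated mouse. The *Cyp2c54* level of INT-767 mouse 2 was 40.4 CPM, and the other treated mice were between 8.39 and 12.8 CPM.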

How the results depend on the processing

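Of the 11 higher and 1 lower P450 genes, the higher count was 11 with RLE factors (9.82% of all genes called). It was 10, each time without *Cyp2c44*, with library size only (9.78%), upper-quartile factors (9.21%), no filter (3.54%), at least 10 counts in every mouse (9.23%) or limma-voom (8.47%). With the GC content and length offset it was 9 (without *Cyp2c67* and *Cyp3a25*, with 14.02% of all genes called), and with DESeq2 16 (20.3% of all genes called). At a threshold of 0.01 it was 4, for which no share of all genes is given here. The higher count lay between 4 and 16 when a mouse was left out, lowest without INT-767 mouse 2. Alternatives chosen after seeing the data gave 19 higher and 3 lower without vehicle mice 1 and 7 (35.6% of all genes called, against 9.72%), and 15 and 1 (*Cyp2d9*, in place of *Cyp2j9*) when INT-767 mice 2 and 4 were also left out (12.1%). The lower count was 0 with RLE factors, no filter or a threshold of 0.01, 2 with library size only, upper-quartile factors or at least 10 counts in every mouse, 3 with DESeq2, and between 0 and 2 when a mouse was left out. Library-size scaling moved the median log2 fold change of all genes to -0.22. The cause of these differences was not tested.

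With the mouse's number as a block, edgeR called 0 P450 genes higher and 0 lower, also together with the GC content and length offset (0 and 0). In both fits 0% of all tested genes were called, so that the lack of calls is not particular to the P450 genes. An edgeR unadjusted *p* under 0.05 was reached by 12 and 9 of the P450 genes (1347 and 1700 of all genes). No source used here pairs mice by number, and same-numbered mice did not deviate together (correlations -0.69, 0.22, 0.15 and -0.48).

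Of the 21 genes described as called or as most abundant in their subfamily, the sign turned for 3, none of them called. *Cyp2a4* and *Cyp2a5* are not among these 21. *Cyp2c29* was -0.11 with library size only, -0.021 with upper-quartile factors, -0.0022 with at least 10 counts in every mouse, -0.028 with limma-voom, -0.13 with the block, -0.17 with the GC content and length offset, -0.41 with both, and -0.29 to 0.29 when a mouse was left out. *Cyp2r1* was -0.19 with that offset and -0.30 with the block and the offset. *Cyp2u1* was -0.038 to 0.49 when a mouse was left out, lowest without INT-767 mouse 1. Fitted with no filter, none of the 14 untested genes with a count was called by edgeR (lowest adjusted *p* 0.317), and 0 had an unadjusted *p* under 0.05, at 1 to 68 counts over all mice.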

Other observations

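The other motifs searched in the 250 bases before the RefSeq start, on both strands, were rarer among the P450 genes than the hexamer AGGTCA. The core GCGTG bound by AHR was in 8 of the 49 windows of the family, among them those of *Cyp1a1* and *Cyp1b1*, and in 30.9% of all genes with a window. The STAT motif TTCNNNGAA was in 2 (*Cyp2j11* and *Cyp2j12*) and in 8.13% of all genes. The inverted repeat of the hexamer with 1 base between, which FXR binds and which holds the hexamer on both strands, was in 0 of the 49 and in 2 genes of all. Of the 9 higher P450 genes with a window 5 held the hexamer, against 28.6% of the 49 P450 genes with a window and 15.8% of all genes. *Cyp2c39* was counted through a listed start other than the one nearest its annotated start, whose window has none. The windows of *Cyp3a25* and *Cyp3a59*, 2 of the 5, were 94.8% identical and are not separate cases. *Cyp2c29* and *Cyp3a11*, which were not called, held the hexamer too. These matches are descriptions of letters in a window.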
